A study of Homo sapiens with 6 samples.

Results

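Autophagy was followed through 40 core genes, taken from a list of the genes that start an autophagosome, build its membrane, attach the ATG8 proteins to it, bring in cargo and prepare it for fusion. The list holds 5 genes of the ULK complex, 6 of the class III PI3K complex, 7 of membrane supply and the WIPI proteins, 10 of conjugation and processing, 5 of the ATG8 family, 5 cargo receptors and 2 fusion tethers. Each symbol was mapped to its Ensembl identifier, and all 40 were among the 58243 identifiers of the count files and passed the filter on low counts. No measured value entered the choice, although it was made with other results of these data known.

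Autophagy encloses cytoplasm in a double membrane and delivers it to the lysosome, where the contents are degraded and reused. The ULK kinase complex receives nutrient and energy signals, the PI3K complex marks the membrane with a phosphoinositide that the WIPI proteins read, and ubiquitin-like conjugation attaches ATG8 proteins to the lipid so that receptors can dock their cargo. In melanoma cells the pathway is known to support survival under stress, and several of its genes carry E-box motifs bound by MITF and its relatives TFEB and TFE3.

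The libraries came from A375, a human melanoma cell line, stably transfected with an empty vector (EV, libraries B1, B2 and B3) or with a plasmid for HA-tagged human PRL3, a protein tyrosine phosphatase encoded by PTP4A3 (PRL3, libraries B9, B10 and B11). Both groups were kept in 100 µg/ml Hygromycin B and received 500 µM 4-thiouridine (4sU) for 20 min. RNA that took up the label was biotinylated, captured and depleted of ribosomal RNA before stranded sequencing (4sU-seq). The study made this experiment to ask how PRL3 affects transcription. The comparison below asks how exon reads of labelled RNA differed between the lines at each autophagy step. Each group is 1 transfected line, and the sources do not say whether a line is a clone or a pool.

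The counted reads of a library ranged from 36532207 to 57952035. PTP4A3 had 217 ± 59.4 normalized counts (SD, n = 3) in EV and 24387 ± 3796 (SD, n = 3) in PRL3 libraries, as the labels state. Of the melanocyte markers, SOX10, MITF and S100B were present, PMEL had at most 61 reads in any library, and MLANA, TYR, TYRP1 and DCT had at most 20. SOX10 was lower in PRL3 libraries by a log2 fold change of -0.85 (SE 0.18, adjusted p = 0.00213, edgeR quasi-likelihood fit, Benjamini-Hochberg) and S100B by -1.38 (SE 0.16, adjusted p = 3.1e-05). The 4 markers of other cell types reported here (PTPRC, CD3E, PECAM1 and EPCAM) summed to 2.44 to 22.7 normalized counts in EV and 12.4 to 26.8 in PRL3 libraries, with at most 21 reads for any of them. Reads outside annotated exons took 28.7% to 41.1% of the uniquely aligned reads in EV and 62.8% to 69.1% in PRL3 libraries, and their part in the results on autophagy genes was not tested. Fewer expressing cells and less labelled RNA per cell cannot be told apart in such bulk libraries.

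Labelled RNA counted over exons was lower in PRL3 cells for 19 of the 40 core autophagy genes and higher for 4, and 17 did not pass the threshold. Reads in introns were not counted, so a lower count need not mean less labelled RNA of the whole gene. The paper turned to intronic reads to limit effects of splicing and of carried-over mRNA. A gene passed when its Benjamini-Hochberg adjusted p over all 23884 genes tested was under 0.05 in edgeR's quasi-likelihood fit. The 19 lower genes are 47.5% of the list. Among all genes tested, 22.7% were lower, and among protein-coding genes 31.6% were lower. The 4 higher genes (ATG12, ATG10, EPG5 and BECN1) are 10.0% of the list, beside 20.0% of all genes and 15.2% of protein-coding genes. The median log2 fold change of the 40 genes was -0.58, beside 0.11 over all genes tested and -0.15 over protein-coding genes. Nothing in the labels says that the 3 libraries of a group came from separate cultures, so the p-values measure the spread between these libraries, which may be technical.

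The steps did not move as 1 block. Most genes were lower in the ULK complex (4 of 5) and in membrane supply and WIPI proteins (5 of 7). The same held for the ATG8 family (3 of 5) and the cargo receptors (4 of 5). Conjugation and processing had 3 lower and 2 higher genes of 10, close to the 31.6% lower and 15.2% higher among protein-coding genes. None of the 6 genes of the PI3K complex was lower with TMM scaling (2 were with all uniquely aligned reads), and the median log2 fold change of that complex was 0.22 (-0.26 with all uniquely aligned reads), against -0.61 for the ULK complex, -0.90 for membrane supply, -0.86 for the ATG8 family and -0.79 for the receptors. Conjugation stood between them with a median of -0.29 (0.20 with library size alone), and it held both lower and higher genes. These medians describe the members and carry no test. The steps also differ in the length of their genes, as given with the genomic spans below.

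**Figure D1:**
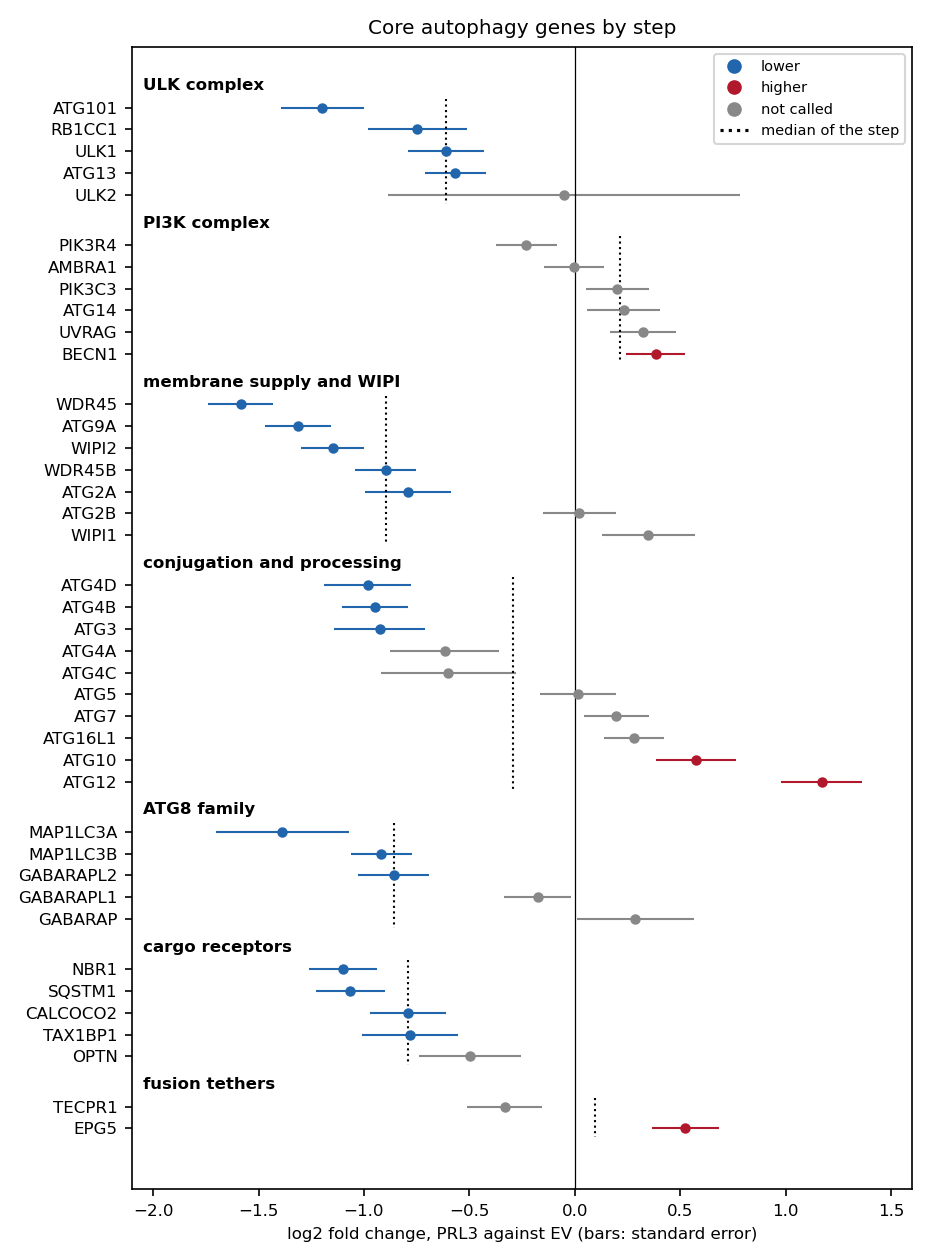
Log2 fold change of PRL3 against EV for each of the 40 genes, grouped by step; points are edgeR estimates after TMM scaling, bars are standard errors, colours give the call at an adjusted p of 0.05 and dotted lines the median of the step. WDR45 at -1.59 and ATG12 at 1.17 are the ends of the range, and the points of the PI3K complex lie around 0 while those of the receptors all lie below it (with library size alone OPTN is at 0.0057, and with all uniquely aligned reads the PI3K median is -0.26).

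A scaling factor adds nearly the same amount to the log2 fold change of every gene, so it sets the position of 0 and leaves the distances between genes almost as they are. Scaling by library size alone moved the median of all genes tested from 0.11 to 0.60, and scaling by all uniquely aligned reads moved it to -0.36. The median of the 40 genes moved with it, to -0.09 and -1.06. The calls became 11 lower and 14 higher under library size alone, where 3078 of all genes tested were lower and 9514 higher, and 26 lower and 1 higher under all uniquely aligned reads, where 8473 were lower and 1952 higher. Upper-quartile scaling gave 17 lower and 7 higher autophagy genes, where 4475 of all genes tested were lower and 6353 higher. A fit on protein-coding genes only gave 19 and 9, where 3855 of the 14443 genes tested were lower and 3445 higher. Relative to all genes tested, the autophagy median was -0.70 under TMM, -0.69 under library size alone and -0.70 under all uniquely aligned reads. Relative to protein-coding genes it was -0.43, -0.43 and -0.44 under these scalings, and -0.25 under TMM without EV library B1. The PI3K median exceeded the ULK median by 0.83, with a range of 0.62 to 0.99 over the alternatives, in which left-out libraries set both ends, and the membrane supply median by 1.11, with a range of 1.02 to 1.24.

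**Figure D2:**
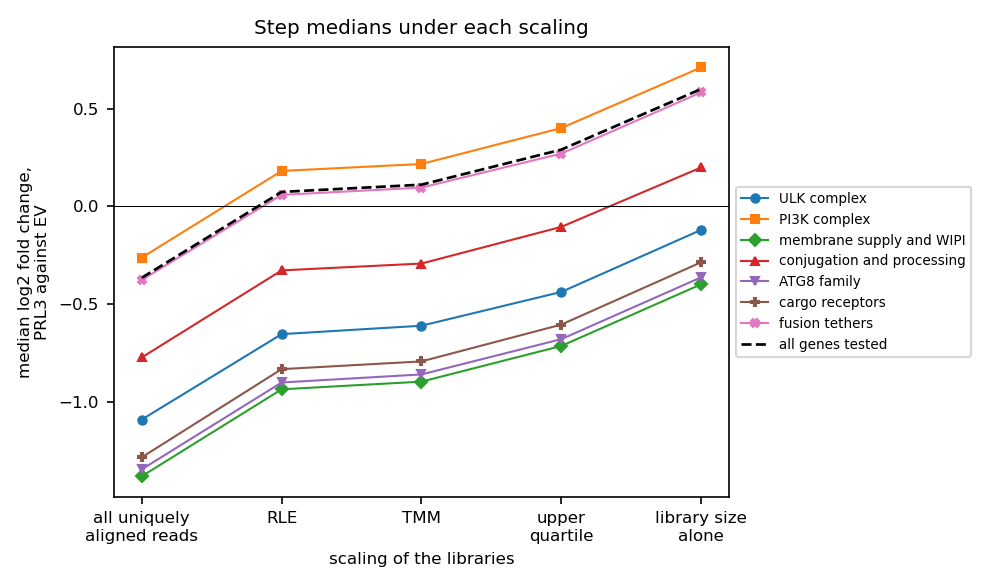
Median log2 fold change of PRL3 against EV for each step (y axis) under 5 scalings of the same libraries (x axis), with the median of all genes tested as a dashed line. The lines run parallel because a scaling shifts all genes nearly alike: the PI3K complex goes from -0.26 to 0.71 and membrane supply from -1.38 to -0.40 between the scalings at the ends, so the side of 0 on which a step lies depends on the scaling.

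The ULK complex, the kinase that starts autophagosome formation, was lower in 4 of its 5 genes. ATG101, the HORMA-domain subunit that stabilizes ATG13 (GRCh38 chromosome 12, 52069246 to 52077495, plus strand), had 9604, 12661 and 8866 normalized counts in EV libraries B1, B2 and B3 and 3803, 5797 and 3967 in PRL3 libraries B9, B10 and B11. A normalized count is a read count divided by the TMM-scaled library size and multiplied by the mean of those sizes. All PRL3 values lay under all EV values, and ATG101 was 2.29-fold lower (log2 fold change -1.20, SE 0.20, adjusted p = 0.000325). ATG13, the adaptor that joins the kinase to its partners, had 4937, 5806 and 4927 normalized counts in EV and 3597, 3663 and 3310 in PRL3 libraries. Its groups did not overlap either (log2 fold change -0.57, SE 0.14, adjusted p = 0.00644), although with library size alone its estimate was -0.07 and did not pass.

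The kinase ULK1 (log2 fold change -0.61, SE 0.18, adjusted p = 0.0151) and the scaffold RB1CC1, also called FIP200 (-0.75, SE 0.24, adjusted p = 0.0212), were lower with less margin. The RB1CC1 counts were 2576, 1322 and 1400 in EV and 926.6, 1045 and 1186 in PRL3 libraries. EV library B1 was far above the other EV libraries here, and without it the log2 fold change was -0.37 with an adjusted p of 0.0833. The RB1CC1 call was also lost without PRL3 library B9 (adjusted p = 0.0972) or B10 (0.0645), and that of ULK1 without EV B2 (0.059), PRL3 B9 (0.0839) or PRL3 B11 (0.0822). ULK2, the second ULK kinase, had between 4 and 51 reads in a library, and its estimate of -0.05 had a standard error of 0.83, so no difference was detectable at this depth.

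The class III PI3K complex makes the phosphoinositide signal on the forming membrane, and most of its genes did not pass the test. BECN1, the scaffold that binds the other subunits (chromosome 17, 42810134 to 42833350, minus strand), had 3700, 3417 and 3728 normalized counts in EV and 4428, 4958 and 4770 in PRL3 libraries. The groups did not overlap, and BECN1 was 1.31-fold higher (log2 fold change 0.38, SE 0.14, adjusted p = 0.0401). Scaling by all uniquely aligned reads turned this to -0.09, and the call was lost without EV B2 (adjusted p = 0.0771), EV B3 (0.0551), PRL3 B9 (0.0623), PRL3 B10 (0.128) or PRL3 B11 (0.117).

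The lipid kinase PIK3C3 itself had a log2 fold change of 0.20 (SE 0.15, adjusted p = 0.297), and its regulatory subunit PIK3R4 had -0.23 (SE 0.15, adjusted p = 0.224). ATG14, which directs the complex to autophagy, and UVRAG, which directs it to endosomes, had 0.23 (SE 0.17) and 0.32 (SE 0.16). AMBRA1, a regulator of BECN1, had -0.0034 (SE 0.14, adjusted p = 0.987). Calls in this complex depended on the scaling. With library size alone PIK3C3, ATG14, UVRAG and AMBRA1 passed as higher beside BECN1, at 0.49 to 0.82, and with all uniquely aligned reads PIK3R4 (-0.71, adjusted p = 0.00299) and AMBRA1 (-0.48, adjusted p = 0.0283) passed as lower. UVRAG also passed as higher with upper-quartile scaling (adjusted p = 0.0141), with protein-coding genes only (0.0131) and without EV B1 (0.46, adjusted p = 0.0191). Under the first of these settings PIK3C3 passed too (adjusted p = 0.0455), and with protein-coding genes only PIK3C3 (0.0418) and ATG14 (0.0491) did. The summed normalized counts of the 6 genes spanned 15262 to 17144 in EV and 17884 to 18181 in PRL3 libraries.

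Membrane supply and the WIPI proteins held the largest fall of the list. WDR45, a WIPI protein that binds the phosphoinositide and ATG2 (chromosome X, 49074433 to 49101170, minus strand), had 5457, 6130 and 4913 normalized counts in EV and 1782, 1999 and 1715 in PRL3 libraries. It fell by 1.59 on the log2 scale (SE 0.15, adjusted p = 1.2e-05), and no PRL3 library came near the EV range. ATG9A, the lipid scramblase carried by vesicles that seed the membrane (chromosome 2, 219219380 to 219229717, minus strand), had 3990, 5109 and 4279 normalized counts in EV and 1724, 1995 and 1660 in PRL3 libraries. ATG9A fell 2.49-fold (log2 fold change -1.31, SE 0.16, adjusted p = 3.4e-05), again without overlap.

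WIPI2, which recruits ATG16L1, fell by 1.15 on the log2 scale (SE 0.15, adjusted p = 6.2e-05) and WDR45B by 0.90 (SE 0.15, adjusted p = 0.000299). The lipid transfer protein ATG2A had a log2 fold change of -0.79 (SE 0.20, adjusted p = 0.00678), while its close relative ATG2B had 0.02 (SE 0.17, adjusted p = 0.930). WIPI1, the remaining WIPI protein, had 0.35 (SE 0.22, adjusted p = 0.226) and was the least abundant, at 261 ± 29.1 normalized counts in EV libraries against 6392 ± 395 for WIPI2 (SD, n = 3). Thus 3 of the 4 WIPI genes and 1 of the 2 ATG2 genes were lower. ATG2A lost its call with library size alone, where its estimate was -0.31.

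Conjugation and processing held 3 lower, 2 higher and 5 genes that did not pass. Among the ATG4 proteases, which trim ATG8 proteins and release them from lipid, ATG4B had 2972, 3653 and 3409 normalized counts in EV and 1644, 1963 and 1589 in PRL3 libraries, and was 1.93-fold lower (log2 fold change -0.95, SE 0.16, adjusted p = 0.00034). ATG4D had 2315, 3916 and 2927 in EV and 1330, 1898 and 1405 in PRL3 libraries, and was 1.98-fold lower (log2 fold change -0.98, SE 0.21, adjusted p = 0.00191). In both genes the highest PRL3 library stayed under the lowest EV library. ATG4A (-0.62, SE 0.26, adjusted p = 0.0707) and ATG4C (-0.60, SE 0.32, adjusted p = 0.149) did not pass with all libraries. ATG4A passed without EV B2 (adjusted p = 0.0496) or EV B3 (0.0315), and ATG4C without EV B2 (0.0249), whereas without EV B1 the ATG4C estimate was -0.22.

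The ubiquitin-like protein ATG12 and the enzyme that attaches it to ATG5 were higher. ATG12 (chromosome 5, 115828200 to 115841837, minus strand) had 3564, 2084 and 3103 normalized counts in EV and 6499, 5932 and 7297 in PRL3 libraries. All PRL3 libraries exceeded all EV libraries, and ATG12 rose 2.25-fold (log2 fold change 1.17, SE 0.19, adjusted p = 0.000324). It was the highest of the 40 estimates and stayed between 0.69 and 1.66 in every alternative, with the call kept in all 16. ATG10, the E2-like enzyme for ATG12 (chromosome 5, 81972023 to 82276857, plus strand), had 572.4, 539 and 408.3 normalized counts in EV and 747.5, 760.5 and 752.5 in PRL3 libraries. The ATG10 groups did not overlap (1.49-fold higher, log2 fold change 0.57, SE 0.19, adjusted p = 0.0263), but the call was lost without EV B3 (adjusted p = 0.0725), PRL3 B9 (0.07), PRL3 B10 (0.0851) or PRL3 B11 (0.0816).

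The other partners of that reaction had small estimates that did not pass: ATG5, the acceptor of ATG12, had 0.016 (SE 0.18, adjusted p = 0.951), the shared E1-like enzyme ATG7 had 0.20 (SE 0.15, adjusted p = 0.331) and ATG16L1, which anchors the conjugate on the membrane, had 0.28 (SE 0.14, adjusted p = 0.132). ATG3, the E2-like enzyme for the ATG8 proteins, was lower, with a log2 fold change of -0.93 (SE 0.21, adjusted p = 0.00367). Its counts were 3089, 1895 and 1820 in EV and 977.1, 1252 and 1352 in PRL3 libraries, so EV B1 stood high, as it did for RB1CC1. Without EV B1 the estimate was -0.64 and still passed (adjusted p = 0.0102). The 2 E2-like enzymes therefore had estimates of opposite sign, ATG10 above 0 and ATG3 below it, in every alternative run.

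The ATG8 family, the proteins that are joined to lipid and bind the receptors, was lower in 3 of 5 genes. MAP1LC3B, the LC3 protein most used as an autophagosome marker, had 2748, 2464 and 2521 normalized counts in EV and 1333, 1395 and 1365 in PRL3 libraries, and was 1.89-fold lower (log2 fold change -0.92, SE 0.15, adjusted p = 0.000257). MAP1LC3A had 300.8, 437.9 and 229.1 in EV and 103, 164.5 and 100.8 in PRL3 libraries, and was 2.61-fold lower (log2 fold change -1.39, SE 0.31, adjusted p = 0.00314). GABARAPL2 had 2242, 2185 and 1680 in EV and 1030, 1194 and 1142 in PRL3 libraries, and was 1.81-fold lower (log2 fold change -0.86, SE 0.17, adjusted p = 0.00111). None of these 3 genes overlapped between groups, and GABARAPL2 alone among them lost its call with library size alone, at -0.36.

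The other 2 ATG8 genes overlapped between groups. GABARAPL1 had 1971, 1895 and 1668 normalized counts in EV and 1397, 1702 and 1798 in PRL3 libraries (log2 fold change -0.18, SE 0.16, adjusted p = 0.407). GABARAP had 177.8, 174.5 and 180 in EV and 165.8, 202.4 and 281.9 in PRL3 libraries (log2 fold change 0.29, SE 0.28, adjusted p = 0.433). Its level is uncertain, because 35.4% of its exon bases are shared on the same strand with another annotated gene, ENSG00000262526, and reads there count for neither gene. That neighbour had 0 reads in all 6 libraries. MAP1LC3B has a near-identical copy, MAP1LC3B2, with 30.1 ± 21.3 normalized counts in EV and 9.90 ± 1.79 in PRL3 libraries (SD, n = 3), and reads that fit both were not counted for either.

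Per kb of exon, the 2 most abundant ATG8 transcripts in EV libraries were GABARAPL2 at 676 ± 103 normalized counts per kb and MAP1LC3B at 512 ± 29.8 (SD, n = 3), ahead of GABARAPL1 at 455 ± 38.9, MAP1LC3A at 280 ± 92.1 and GABARAP at 90.9 ± 1.44. In PRL3 libraries GABARAPL1 came first at 403 ± 51.6, followed by GABARAPL2 at 373 ± 27.8, MAP1LC3B at 271 ± 6.15, GABARAP at 111 ± 30.4 and MAP1LC3A at 107 ± 31.4. The differences between GABARAPL1 and GABARAPL2, and between GABARAP and MAP1LC3A, in PRL3 libraries were within their spread, and so was that between MAP1LC3B and GABARAPL1 in EV libraries when both SDs are added. These levels compare genes within a group by length and do not set 1 group against the other. The GABARAP values may be too low, because reads on the 35.4% of its exon bases shared with ENSG00000262526 were not counted. Its full exon length was used all the same, so its place in either order is uncertain.

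**Figure D3:**
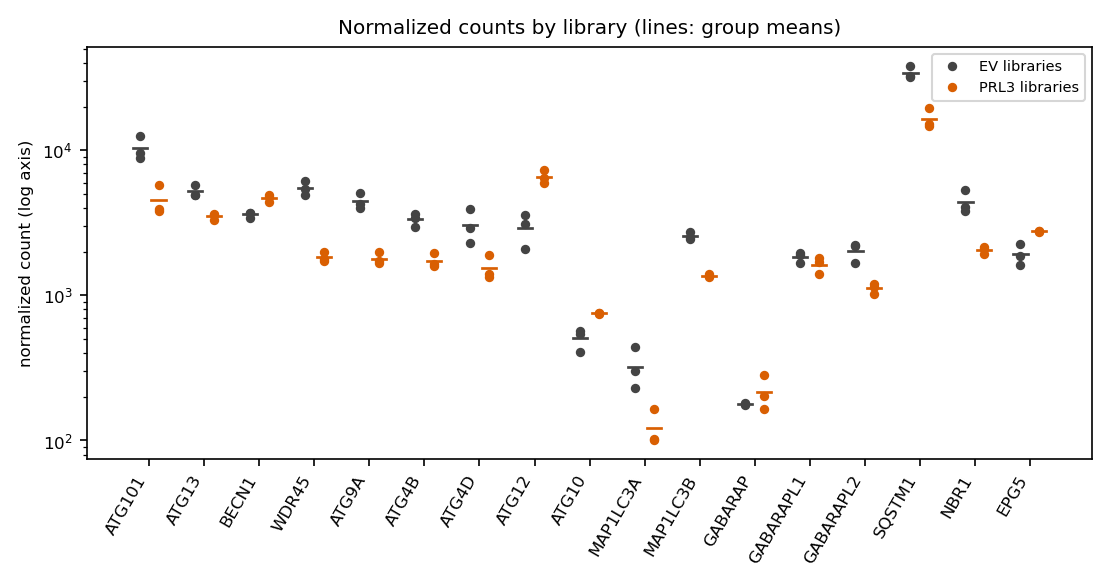
Normalized counts (y axis, log scale) in the 3 EV and 3 PRL3 libraries for the genes whose library values are given in full by rule, from initiation at the left to the fusion tether EPG5 at the right; points are libraries and short lines are group means. The groups are apart for each gene plotted except GABARAP and GABARAPL1, and the PRL3 points lie above the EV points for BECN1, ATG12, ATG10 and EPG5. Outside the ATG8 family the genes were chosen by their p in these same libraries, so groups that lie apart follow largely from that choice. The share of all genes tested without overlap was not computed.

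The cargo receptors, which bind ubiquitin-tagged material at 1 end and ATG8 proteins at the other, all had estimates below 0 except OPTN under library size alone (0.0057), and 4 of 5 were lower. SQSTM1, or p62, the receptor for protein aggregates (chromosome 5, 179806398 to 179838078, plus strand), had 32192, 38344 and 32544 normalized counts in EV and 14734, 19452 and 15091 in PRL3 libraries. It was 2.09-fold lower without overlap (log2 fold change -1.06, SE 0.16, adjusted p = 0.000211). NBR1, a receptor that acts with p62, had 5314, 4073 and 3847 in EV and 2160, 1938 and 2077 in PRL3 libraries, and was 2.14-fold lower (log2 fold change -1.10, SE 0.16, adjusted p = 0.00015). SQSTM1 was the most abundant of the 40 genes per length in both groups, with 4560 ± 459 normalized counts per kb of exon in EV and 2180 ± 349 in PRL3 libraries (SD, n = 3), ahead of ATG101 with 3248 ± 630 and 1415 ± 346.

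CALCOCO2, or NDP52, a receptor for bacteria and damaged mitochondria, had a log2 fold change of -0.79 (SE 0.18, adjusted p = 0.00313). The related receptor TAX1BP1 had -0.78 (SE 0.23, adjusted p = 0.0140), from 7056, 3668 and 3764 normalized counts in EV and 2507, 2832 and 3097 in PRL3 libraries. EV B1 was again the high library, and without it the estimate was -0.40 (adjusted p = 0.0415). The call was lost without PRL3 B9 (-0.69, adjusted p = 0.0696). OPTN, a receptor for mitochondria and bacteria, had -0.50 (SE 0.24, adjusted p = 0.116) and did not pass. With library size alone, CALCOCO2 and TAX1BP1 had estimates of -0.29 and -0.28 and did not pass.

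Of the tethers that hold the finished autophagosome at the lysosome, EPG5 had 1625, 1866 and 2267 normalized counts in EV and 2729, 2762 and 2787 in PRL3 libraries. The PRL3 libraries lay close together above all EV libraries, and EPG5 was 1.44-fold higher (log2 fold change 0.52, SE 0.16, adjusted p = 0.0173). Its call was lost without PRL3 B10 (adjusted p = 0.0523) or PRL3 B11 (0.0601), and scaling by all uniquely aligned reads brought the estimate to 0.05. TECPR1, a tether that binds the ATG12 conjugate, had -0.33 (SE 0.18, adjusted p = 0.152), and it passed the threshold without EV B1 at -0.50 (adjusted p = 0.0127).

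Calls that did not depend on 1 library or setting were mostly among the lower genes. Of the 19 lower genes, all kept their direction in the 16 alternatives and 11 kept their call in each: ATG101, ATG9A, WIPI2, WDR45, WDR45B, ATG4B, ATG4D, MAP1LC3A, MAP1LC3B, SQSTM1 and NBR1. Of the 4 higher genes, ATG12 kept its call in each. A scaling shifts all genes nearly alike, so a direction kept under it follows from the distance of the estimate to 0. The share of all called genes that kept their call was not computed, so these counts do not set the autophagy genes apart from other genes. The count of higher genes fell to 2 without EV B3 or PRL3 B9 and to 1 without PRL3 B10 or PRL3 B11. Over all genes tested the higher count was 4783 with all libraries and 5940 without EV B3. Without PRL3 B9, B10 and B11 it was 3243, 3424 and 3200. A two-sided exact permutation test of 3 libraries against 3 cannot give a p under 0.1, and each called gene reached that value. So did PIK3R4, ATG14, UVRAG, WIPI1, ATG4A and ATG16L1, which were not called. The calls came from the same libraries, so this value adds no separate support.

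The size of the genes moved with the difference. Genomic span here is the distance from the first to the last annotated base of a gene in GENCODE release 44. Of the 24 autophagy genes under 50 kb, 16 were lower and 2 higher, and of the 16 with at least 50 kb, 3 were lower and 2 higher. The 6 genes of at least 150 kb (ATG5, ATG7, ATG10, UVRAG, AMBRA1 and EPG5) had a median log2 fold change of 0.26. They held no lower gene, beside 9.69% of protein-coding genes of that span, and 2 higher genes (33.3%, beside 25.4%). With so few genes these shares do not set them apart from that background. The 8 genes under 20 kb had a median of -0.92, with ATG12 and GABARAP above 0 (GABARAP at -0.19 with all uniquely aligned reads).

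Protein-coding genes as a whole showed the same order, with a median of -0.51 under 20 kb, -0.20 from 20 to 50 kb, -0.01 from 50 to 150 kb and 0.22 from 150 kb. In those classes 45.4%, 34.3%, 21.2% and 9.69% of protein-coding genes were lower. From 20 to 50 kb, 11 of 16 autophagy genes were lower, and their median was -0.84. Across the 40 genes the log2 fold change and log10 span had a Pearson correlation of 0.37 and a Spearman correlation of 0.47, beside 0.28 and 0.30 over 14443 protein-coding genes. Genes within the same libraries are not independent, so these correlations are descriptions. The steps differed in span. Genes of the PI3K complex spanned 23.2 kb (BECN1) to 329 kb (UVRAG), and those of the ATG8 family 2.44 kb (GABARAP) to 20.8 kb (MAP1LC3B). Membrane supply spanned 10.3 to 84.1 kb, the receptors 31.7 to 105 kb and the ULK complex 8.25 to 123 kb. The part of gene length in the autophagy result, and in the contrast between steps, was not tested. Nor was that of the larger share of reads outside exons in PRL3 libraries.

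**Figure D4:**
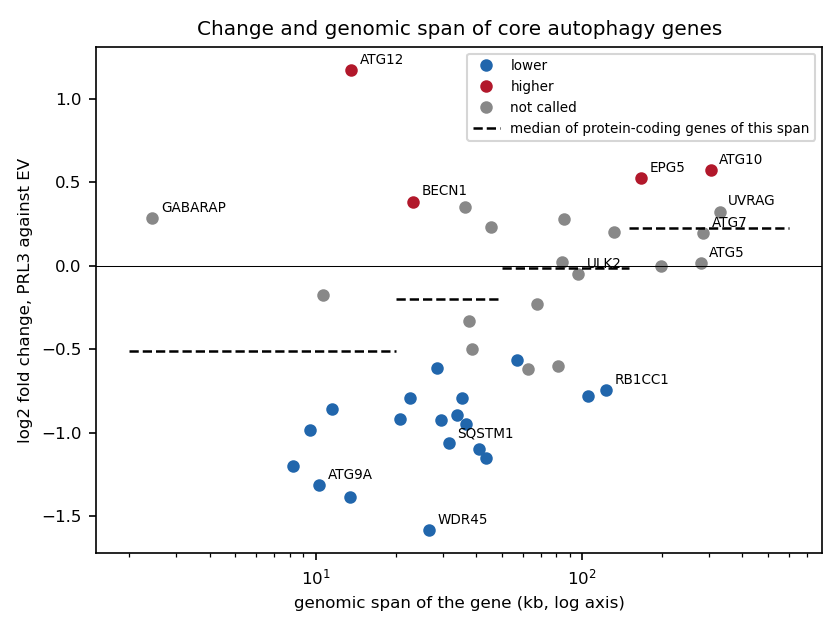
Log2 fold change of PRL3 against EV (y axis) against genomic span in kb (x axis, log scale) for the 40 genes, coloured by call; dashed lines give the median of protein-coding genes under 20 kb, from 20 to 50 kb, from 50 to 150 kb and from 150 kb. The lower genes lie mostly under 50 kb, and ATG12, BECN1 and GABARAP are short genes above 0 (BECN1 at -0.09 and GABARAP at -0.19 with all uniquely aligned reads).

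Promoter sequence was read because E-boxes of the MITF and TFEB type are known in autophagy promoters. The RefSeq promoter table (GRCh38.p14, 250 bases before to 50 after the start site) held 43 windows for 34 of the 40 genes. The E-box CACGTG, the same on both strands, was in 2 of the 43 windows (4.65%), against 7.26% of 35116 windows of all genes. Its extended form TCACGTGA, which contains CACGTG, was in 1 (2.33%, against 0.980%), and TCATGTGA, searched on both strands, was in 0 of 43, against 1.00% of all windows. The genes with a CACGTG were ATG3, which was lower, and ATG14, which did not pass the test. They are shown from 40 bases before to 20 after the start site, with the motifs in capitals, for ATG3 at chr3:112561943-112562002 on the minus strand and for ATG14 at chr14:55411811-55411870 on the minus strand.
ATG3: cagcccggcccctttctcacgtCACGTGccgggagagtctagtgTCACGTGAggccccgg
ATG14: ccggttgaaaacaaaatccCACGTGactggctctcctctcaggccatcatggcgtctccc
In ATG3 the first CACGTG begins 18 bases before the start site and the extended form begins at position 5 after it, and in ATG14 the motif begins 21 bases before. The other 32 genes with a window held no CACGTG in it, the 14 other lower and 3 higher genes with a window included. Within these windows the letters were thus not shared by the genes that differed. No window was at hand for RB1CC1, ATG4D, MAP1LC3A, WDR45B, EPG5 and UVRAG, and sequence outside the windows was not read. A part of MITF or its relatives in the differences was not tested. MITF itself had 1378 ± 150 normalized counts in EV and 1773 ± 51.3 in PRL3 libraries (SD, n = 3), a difference that did not pass (log2 fold change 0.36, adjusted p = 0.0738).

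Around the core machinery, 54 further genes of the pathway were read from a list set by role, of which 53 could be tested and ATG9B was too low. Of these, 21 were lower (39.6%, beside 31.6% of protein-coding genes) and 5 higher (9.43%, beside 15.2%), with a median log2 fold change of -0.32, beside -0.15 over protein-coding genes. Among the 16 genes that carry mTORC1 and AMPK signals to the ULK complex, 7 were lower (43.8%, beside the same 31.6%) and 2 higher (12.5%, beside 15.2%). MLST8, a subunit of mTORC1, was lower (log2 fold change -1.45, SE 0.17, adjusted p = 2.6e-05), as was the AMPK gamma subunit PRKAG1 (-1.05, SE 0.14, adjusted p = 8.1e-05), and both AMPK beta subunits were higher, PRKAB1 by 0.71 (SE 0.15, adjusted p = 0.00159) and PRKAB2 by 0.57 (SE 0.17, adjusted p = 0.0137). MTOR itself had 0.10 (SE 0.15, adjusted p = 0.620).

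Of the 10 further ATG factors tested, 1 was lower and 1 higher, 10.0% each, below the 31.6% and 15.2% of protein-coding genes. The lower was EI24, an endoplasmic reticulum protein of autophagosome formation (-1.45, SE 0.16, adjusted p = 2.0e-05). The higher was VMP1, a scramblase of the endoplasmic reticulum that acts with ATG9A and ATG2 (1.39, SE 0.20, adjusted p = 0.000143). VMP1 had 24252 ± 6758 normalized counts in EV and 63510 ± 8527 in PRL3 libraries (SD, n = 3). Overlap with other annotated genes was examined for the core genes only, not for VMP1. Among the further ATG factors, MAP1LC3B2 had 6 to 35 reads in a library (SE 0.86), MAP1LC3C 28 to 51 (SE 0.50) and RUBCNL 20 to 112 (SE 0.46). Low depth thus limited the calls in this list.

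The 14 receptors for organelles had a median of -0.58, with 7 lower (50%, beside 31.6% of protein-coding genes) and 1 higher (7.14%, beside 15.2%). PHB2, a mitophagy receptor of the inner mitochondrial membrane, was 3.26-fold lower (log2 fold change -1.70, SE 0.17, adjusted p = 1.3e-05), and RTN3, a receptor for tubules of the endoplasmic reticulum, was lower by 1.05 (SE 0.15, adjusted p = 0.000139). CCPG1, another receptor of the endoplasmic reticulum, was higher by 0.83 (SE 0.27, adjusted p = 0.0256). Of the 13 genes of autophagosome-lysosome fusion, 6 were lower (46.2%, beside 31.6%) and 1 higher (7.69%, beside 15.2%). The SNARE protein VAMP8 (-1.60, SE 0.20, adjusted p = 3.7e-05) and the HOPS subunit VPS16 (-1.39, SE 0.17, adjusted p = 3.6e-05) were lower, and FYCO1, an adaptor for autophagosome transport, was higher (0.86, SE 0.15, adjusted p = 0.000575). The SNARE partners of VAMP8, STX17 and SNAP29, had 0.34 (SE 0.18) and 0.31 (SE 0.17) and did not pass.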

How the data were processed

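Labelled RNA of 3 EV and 3 PRL3 libraries was sequenced (4sU-seq). The authors checked reads with FastQC 0.11.3, aligned them to GRCh38 with STAR 2.5.1b and counted them per Ensembl release 91 gene with HTSeq 0.6.1 in its reverse-strand mode. The deposited values are raw counts, without normalization. The counter's summary lines were left out of library sizes and tests, and the shares outside exons stand in the report. Symbols and spans came from GENCODE release 44 (57532 of 58243 identifiers matched). Members and lists were chosen with earlier results of these data known.

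PRL3 was compared with EV by edgeR 4.0.16 (R 4.3.3): TMM scaling, filterByExpr (23884 genes kept), the quasi-likelihood test and Benjamini-Hochberg adjustment over all kept genes, with a threshold of 0.05. The study used DESeq2, which is an alternative here. Standard errors were derived from the F statistic. The fit was tested on simulated data. Every member is named; values in every library are given for the 2 genes with the smallest p in each direction of a step, for all ATG8 genes and for RB1CC1, ATG3 and TAX1BP1, added after their values were seen. STX17, SNAP29 and MTOR were also named after their values were seen. One marker of another cell type is not reported here. Of the further pathway genes, the 2 with the smallest p in each direction of a list are named.

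Alternatives were RLE, upper-quartile, library-size and uniquely-aligned-read scaling, DESeq2 1.42.0, limma-voom (limma 3.58.1), 2 count filters, protein-coding genes only, an adjusted p of 0.01 and each library left out. No 2 libraries agreed within sampling noise (lowest mean chi-square over genes 24.7, between PRL3 B10 and PRL3 B11), so each was entered as 1 replicate. This check cannot tell separate cultures from separate preparations of 1 culture.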

Additional observations from a re-analysis of the deposited data

Results flagged for a closer look

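Reads outside the annotated exons, which the comparisons did not use, took 66.3% ± 3.18 (SD, n = 3) of uniquely aligned reads in the PRL3 libraries against 33.3% ± 6.75 (SD, n = 3) in the EV controls. They were marked because the share lies above the control level in data outside the main measurement. Their part in the differences of the autophagy genes was not tested. Groups of 3 libraries are too small for the search for single outlying libraries.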

How the results depend on the processing

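No paired analysis was possible because EV and PRL3 libraries have no replicate number in common. The causes of the changes below were not tested, except that a scaling shifts every gene alike. The counts of called genes over all genes tested moved under these settings too, as given in the Results. Library size alone gave 11 lower and 14 higher genes, and the medians were -0.090 for the 40 genes, -0.12 for the ULK complex, 0.71 for PI3K, -0.40 for membrane supply, 0.20 for conjugation, -0.36 for ATG8, -0.29 for receptors and 0.58 for tethers. With all uniquely aligned reads, 26 were lower and 1 higher, with medians of -1.06, -1.09, -0.26, -1.38, -0.77, -1.34, -1.28 and -0.38 in that order. With upper-quartile scaling 7 were higher, and the medians were -0.40 for the 40 genes, -0.44 for ULK, 0.40 for PI3K, -0.71 for membrane supply, -0.10 for conjugation and -0.68 for ATG8; with protein-coding genes only, 9 were higher, with -0.40, -0.43, 0.40, -0.71, -0.11 and -0.68. An adjusted p of 0.01 left 16 lower and 1 higher. Over left-out libraries the lower count ranged from 16 to 20, the higher count from 1 to 5, and the medians from -0.61 to -0.36 for the 40 genes, -0.37 to -0.061 for conjugation and -0.041 to 0.20 for tethers, with -0.36, -0.061 and -0.041 all from the fit without EV B1. The ULK median ranged from -0.74 to -0.47 and the receptor median from -0.95 to -0.63 over the same fits. Upper-quartile scaling and protein-coding genes only gave medians of -0.60 and -0.61 for receptors and 0.27 and 0.27 for tethers.

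Of the 23 called genes, BECN1 alone changed sign (-0.092 with all uniquely aligned reads). Among genes not called, that scaling gave PIK3C3 -0.28, ATG14 -0.25, UVRAG -0.16, ATG2B -0.46, WIPI1 -0.13, ATG5 -0.46, ATG7 -0.27, ATG16L1 -0.19 and GABARAP -0.19. Library size alone gave ULK2 0.48, PIK3R4 0.26, AMBRA1 0.49, GABARAPL1 0.32, OPTN 0.0057 and TECPR1 0.16. Upper-quartile scaling gave ULK2 0.17, AMBRA1 0.18 and GABARAPL1 0.0033, and protein-coding genes only gave 0.15, 0.18 and 0.0059. ATG2B and ATG5 were -0.017 and -0.022 with RLE and -0.0060 and -0.012 with DESeq2, ULK2 was 0.81 with limma-voom, and AMBRA1 was 0.024 and 0.040 with the count filters of at least 1 and at least 10. Over left-out libraries ULK2 ranged from -0.58 to 1.37, AMBRA1 from -0.061 to 0.054, ATG2B from -0.065 to 0.12 and ATG5 from -0.066 to 0.15. ULK2 was not kept by the filter of at least 10 counts in every library. Depth limits ULK2, at 4 to 51 reads.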
